A study of Homo sapiens with 20 samples.

Results

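Across 15 PAR-CLIP libraries made with an antibody to IGF2BP3, 1576 merged binding regions held at least 1 cluster from every library, and they are called core regions here. A cluster is a stretch of genome in which crosslinked reads of 1 library pile up with T-to-C conversions. Clusters of the 15 libraries that overlapped by at least 1 nt on the same chromosome and strand were merged, without the mitochondrial chromosome. The merging gave 75158 regions, so the core made up 2.10% of all regions, 10.4% of the nucleotides covered and 67704 of the clusters. The members were chosen by their measured clusters, that is by presence in the lists of all 15 libraries, so their presence, breadth and levels are described with no test. Only differences between treatments were tested, and the choice used no treatment label. It still removed every region that lacked a cluster in any library, so outright losses and gains under a treatment cannot appear among the members.

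IGF2BP3 is an oncofetal RNA-binding protein of the IMP/VICKZ family, with RRM and KH domains. It favours CA-rich elements, binds largely in the 3′ parts of messenger RNAs, and is known for affecting the stability, localisation and translation of its target mRNAs in tumour cells. In PAR-CLIP, cells take up 4-thiouridine in place of uridine, long-wave UV light crosslinks protein to the labelled RNA, and the crosslinked uridines are read as C. The conversion share used here divides the conversion events listed for a cluster by the sum of its conversion and non-conversion events.

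The cells were HCT116, a colorectal carcinoma line, in a derivative with the genotype Tet-OsTIR1-PURO, which all libraries share. All cells had received 100 µM 4-thiouridine for 15 h. The 5 groups, with 3 libraries each, were PBS for 2 h, arsenite at 250 µM for 2 h, DMSO for 4 h, tunicamycin (TM) at 5 µg/mL for 1 h and TM at the same dose for 4 h. Arsenite is an oxidative stressor and TM blocks N-glycosylation and so stresses the endoplasmic reticulum. Sample titles name arsenite whereas the protocol names sodium arsenate, and the title's word is used here. The 1 h TM libraries have no DMSO control of their own time and were set against DMSO for 4 h. RNase I and RNase T1 were used at more than 1 concentration, and which library received which is not stated. By the library names, PBS and arsenite formed a set of their own, replicates 1 and 2 of the DMSO and TM groups another, and replicate 3 of those groups a further one. IgG libraries numbered 5, 1 per condition. The IgG list attached to the PBS sample is named for arsenite, and the list attached to arsenite is named for the control. The attachment was followed, and no direction is drawn from those lists. The labels do not say that replicates came from separate cultures, so p-values measure only the spread between these libraries. RNA abundance was not measured here, so more RNA of a gene and more binding per RNA cannot be told apart in any change below.

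Cluster reads off the mitochondrial chromosome numbered 98546 to 1353261 per anti-IGF2BP3 library, except for PBS replicate 2 with 40353 reads in 3501 clusters. The IgG lists held 25 to 152 such clusters with 268 to 2104 reads. No pair of replicate libraries agreed within sampling noise, with chi-square over degrees of freedom of 1.97 to 3.66. Of the colorectal epithelial markers fixed for this work, 5 of 7 had a region in at least 1 library and 0 had a core region. Leukocyte markers had a region for 1 of 4 genes, and fibroblast, endothelial and erythroid markers for 0 of 4, 0 of 3 and 0 of 2.

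The 30 nt covered by the clusters of most libraries are given here for the regions on which the results turn, 5′ to 3′ on the strand of the RNA, with hg38 coordinates. Capitals mark the tetramers CATA, CATC and CATT, which are CAUA, CAUC and CAUU with U read as T. Motifs were searched on the RNA strand only, and overlapping matches were allowed. Such a tetramer stood in the best-covered window of 55.2% of core regions, 56.5% of regions found in 10 to 14 libraries, 48.4% in 2 to 9, 39.1% in 1 library and 46.1% of all regions with a window. The windows shown are a choice, so no share of windows with a tetramer can be read from them. Those of EEF2, PTP4A1, TMED2, CYB5B and LRRC59, also among the highest regions, hold 0 such tetramers and are not shown. The first set has high levels in every library:
HMGA1 (chr6:34246003-34246032, plus strand): atggcaggctgggtgaccgactaccccagt
CDKN1A (chr6:36686728-36686757, plus strand): aagggcaccctagttctacctcaggcagct
DCBLD2 (chr3:98797911-98797940, minus strand): aaataCATAaatttgaCATTccctcttcca
PAICS (chr4:56460246-56460275, plus strand): acagaatgctcccaactttattCATCttcc
TUBA1B (chr12:49127935-49127964, minus strand): atactaattatcCATTccttttggccctgc
KITLG (chr12:88495459-88495488, minus strand): taacccaggtgctttgagaagctgCATTaa

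The next set is shown because these regions were called higher or lower after arsenite. Some SLC38A2 windows that are not shown hold 0 of the tetramers. The 2 EGR1 windows lie in neighbouring core regions of 1 gene, and the SLC38A2 windows shown are from 3 of its 8 core regions:
EGR1 upstream region (chr5:138467040-138467069, plus strand): cgacagcagtccCATTtactcagcggcacc
EGR1 downstream region (chr5:138468316-138468345, plus strand): tccaagttcttcacctctatccaaagaact
IER2 (chr19:13154583-13154612, plus strand): ttctCATCtgCATTagaggtgcccagtagg
LSM3 (chr3:14198294-14198323, plus strand): ggtattttCATTtttctcaagctctccaat
HSBP1 (chr16:83811565-83811594, plus strand): agtgatttccccccagtttcttgaacatgg
SLC38A2 nearest the 3′ end (chr12:46358819-46358848, minus strand): ttttgCATTactgtcttccgtggatgtttc
SLC38A2 midway (chr12:46362564-46362593, minus strand): agttggtggcgtCATAgtctCATTacagtg
SLC38A2 farther upstream (chr12:46363956-46363985, minus strand): attctgatcttttCATTtgtctgtCATCct

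A further set was called after TM for 4 h. The HSPA5 and HSPA5P1 windows share all but their outermost letters:
HSPA5 (chr9:125236417-125236446, minus strand): tactgcttttCATTagcagttgctcacatg
HSPA5P1 (chr1:38711037-38711066, plus strand): ttactgcttttCATTagcagttgctcacat
TRIB3 (chr20:397049-397078, plus strand): actgatgctggtgctcaggcacctctgtcc
STC2 (chr5:173315353-173315382, minus strand): tcgggtagatagCATTtctatccCATCcct
HMGA2 (chr12:65965973-65966002, plus strand): ataagactggaCATTtaacttttctaccat

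The last set holds windows from the extremes of the conversion share. The tRNA gene windows stand beside that of a site with no annotated gene:
TRX-CAT1-1 (chr1:153671295-153671324, plus strand): tcgatggatcgaaacCATCctctgctatcg
TRX-CAT1-5 (chr6:27332982-27333011, minus strand): tcgatggatcgaaacCATCctctgctatga
no gene (chr6:56322856-56322885, plus strand): tcgatggatcaaaacCATCctctgctatca
RNY1 (chr7:148987189-148987218, minus strand): ttgattgttcacagtcagttacagatcgaa
LOC102724250 (chr1:629504-629533, minus strand): attctcagggatgggttcgattctCATAgt

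The size of the core rested on the shallowest library. Regions missing from exactly 1 library numbered 1489, of which 1206 were missing only from PBS replicate 2, 185 only from TM 1 h replicate 1 and 38 only from arsenite replicate 1. Without PBS replicate 2, 2782 regions held clusters from all of the other 14 libraries. Leaving out any of the other 14 libraries gave 1577 to 1761. PBS replicate 2 gave the lowest read count of the 15 in 1292 of the 1576 core regions, and the lowest count in any core region was 2 reads. Ties for the lowest count were not counted apart. Read depth was not separated from the properties described here.

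**Figure D1:**
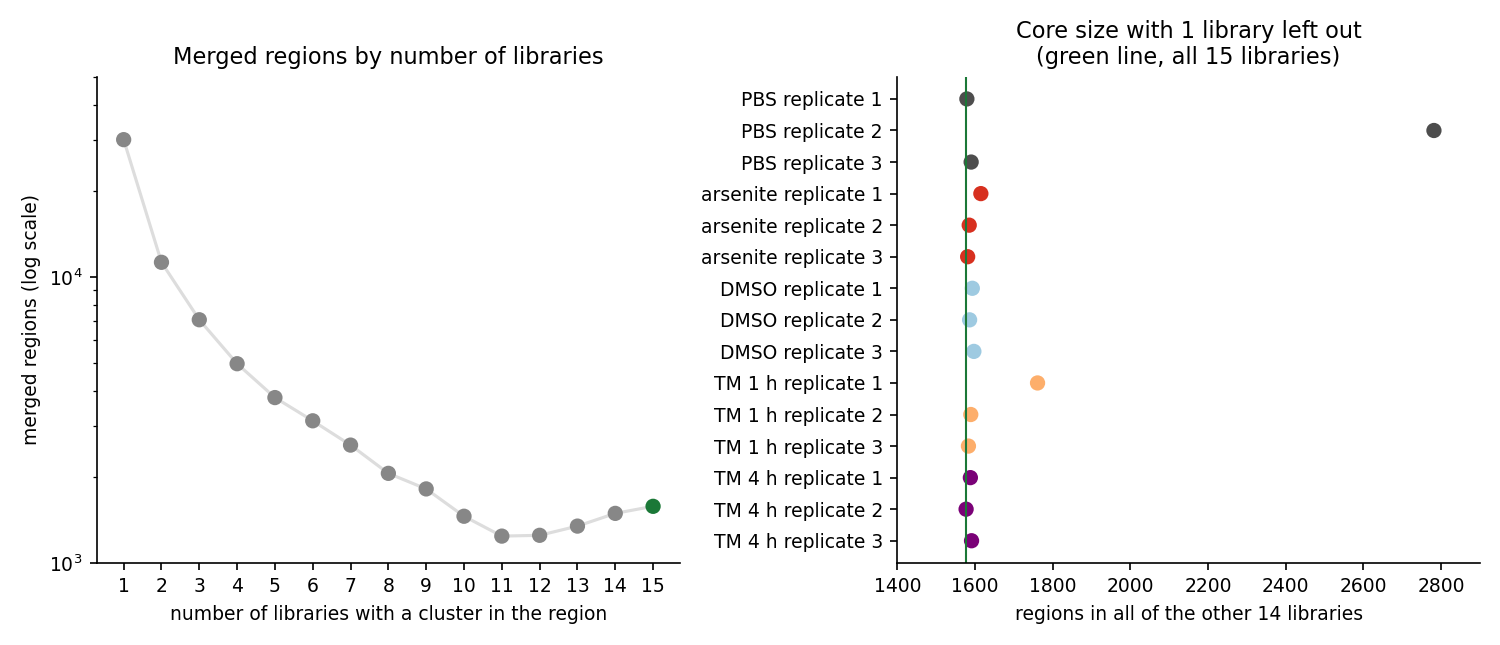
Left, the number of merged regions (log scale) against the number of anti-IGF2BP3 libraries with a cluster in the region, with the core in green; right, the core size with each library left out, coloured by group, and the core of all 15 libraries as a green line. Regions in 1 library numbered 30160 and the core 1576, and the point of PBS replicate 2 stands at 2782.

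Regions just outside the rule could stand above many members in level. The lowest core regions by geometric mean of CPM, a region's cluster reads relative to the scaled total of the library, over the 15 libraries lay in OSBP2 (32.7), the pseudogene TMEM167AP2 (35.5) and WDR45B (37.2). The highest regions found in 14 libraries lay in ATF3 (635), DNAJB1 (473) and YAP1 (442), as a geometric mean over the libraries that held them. All 3 were missing from PBS replicate 2 only. ATF3 and DNAJB1, a stress transcription factor and a heat shock co-chaperone, were thus left out of the core although their levels were above those of most members.

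Core regions were broad. Their median width was 369 nt, with quartiles of 202 and 607.5 nt and a maximum of 2555 nt in DCBLD2, against a median of 59 nt over all other regions and 194 nt over regions in 10 to 14 libraries. Merging overlapping clusters of 15 libraries widens a region, so width partly follows from the rule. In 188 core regions each library gave exactly 1 cluster. These compact regions had a median width of 73 nt. The mode positions that the cluster lists give for single libraries lay a median of 7 nt from their middle value. Some 1256 core regions (79.7%) held at least 1 position that the clusters of all 15 libraries covered, with a median of 40 nt where there was any. Those positions summed to 85126 nt, 11.9% of the core's 716193 nt. The remaining core regions had no position common to all 15 libraries, but every core region held a position covered by clusters of at least 11.

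Within core regions, positions covered by more libraries held more CA-rich tetramers. CATA, CATC and CATT together started 9.67 times per kb at positions covered by 1 to 5 libraries, 13.5 at 6 to 10 and 23.9 at positions covered by all 15. Divided by the number that the base composition of each class gives, the ratio went from 0.759 at 1 to 5 libraries to 0.911, 1.14 and 1.35. CACA starts went from 3.63 to 9.70 per kb and from 1.22 to 2.27 times the number given by composition. GGAC, searched as a comparison, stayed between 2.36 and 2.55 per kb, although its ratio to composition went from 0.925 to 1.43 while the share of G went down. TTTT went the other way, from 21.0 to 12.6 per kb. The share of G went from 22.3% to 16.5% and that of C from 19.2% to 27.0%. The 787 core regions with no 30-mer found in another region gave the same order for CATA, CATC and CATT together, from 9.94 to 24.3 per kb. Positions are not replicates and cluster calls need conversions at T, so these values are a description. Over whole regions the picture was flat, with 7.14 CATT starts per kb in core regions and 7.75 in all others.

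**Figure D2:**
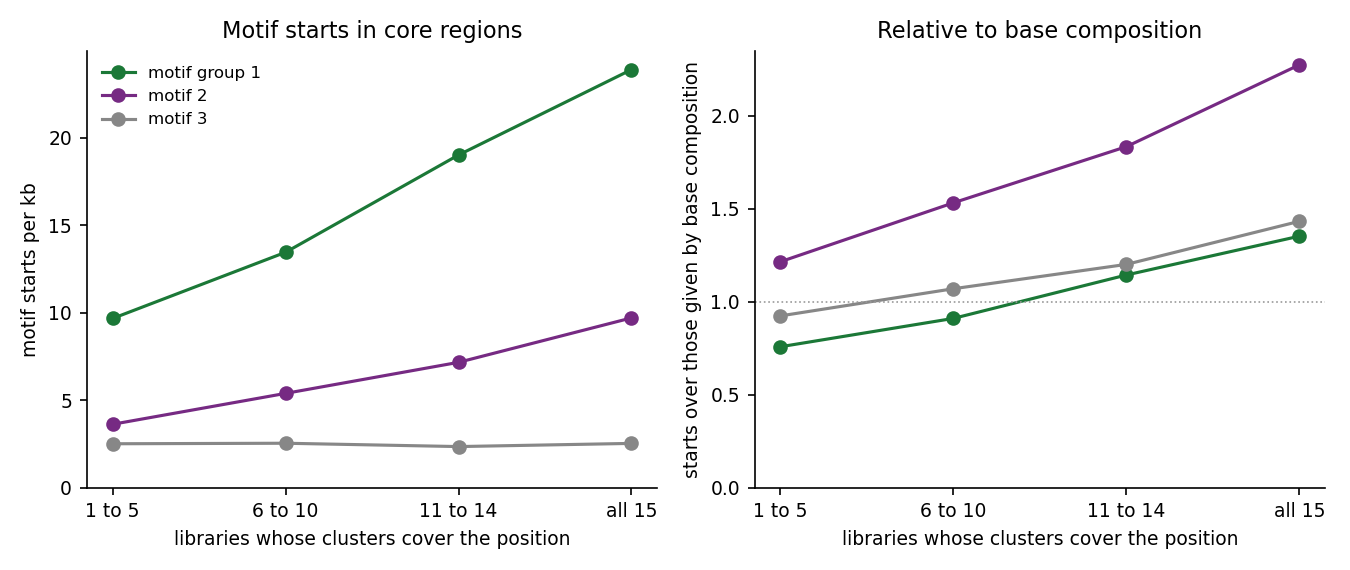
Motif starts per kb (left) and divided by the number given by base composition (right, dotted line at 1) against the number of libraries whose clusters cover a position, over all 1576 core regions. Group 1 is CATA, CATC and CATT together, motif 2 is CACA and motif 3 is GGAC; group 1 goes from 9.67 to 23.9 per kb and motif 3 stays between 2.36 and 2.55.

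Levels of core regions spread 222-fold, from a geometric mean of 32.7 to 7236 CPM with a median of 176. These CPM values were scaled by TMM factors computed over core regions and summed over each region. The highest sum belonged to HMGA1, a chromatin architectural protein and a known IGF2BP target, with a lowest value of 5075 in TM 4 h replicate 3, a median of 6746 and a highest value of 11016 in PBS replicate 2. CDKN1A, the cell cycle inhibitor p21, ranged from 5512 to 8643 CPM. Next came DCBLD2, a transmembrane receptor, with a geometric mean of 4766, the translation elongation factor EEF2 with 4129, the phosphatase PTP4A1 with 4075 and the vesicle trafficking protein TMED2 with 3986. PABPC1, the cytoplasmic poly(A)-binding protein, stood at 3923, the outer mitochondrial cytochrome CYB5B at 3437, the purine synthesis enzyme PAICS at 3176, the tubulin TUBA1B at 3082, the growth factor KITLG at 3060 and the endoplasmic reticulum protein LRRC59 at 2952. Many neighbours in this order overlap: EEF2, PTP4A1 and TMED2 had ranges of 2745 to 6414, 3534 to 5335 and 3057 to 5062. All 12 had an IgG cluster except DCBLD2 and KITLG, with at most 94 IgG reads in a region, at HMGA1.

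**Figure D3:**
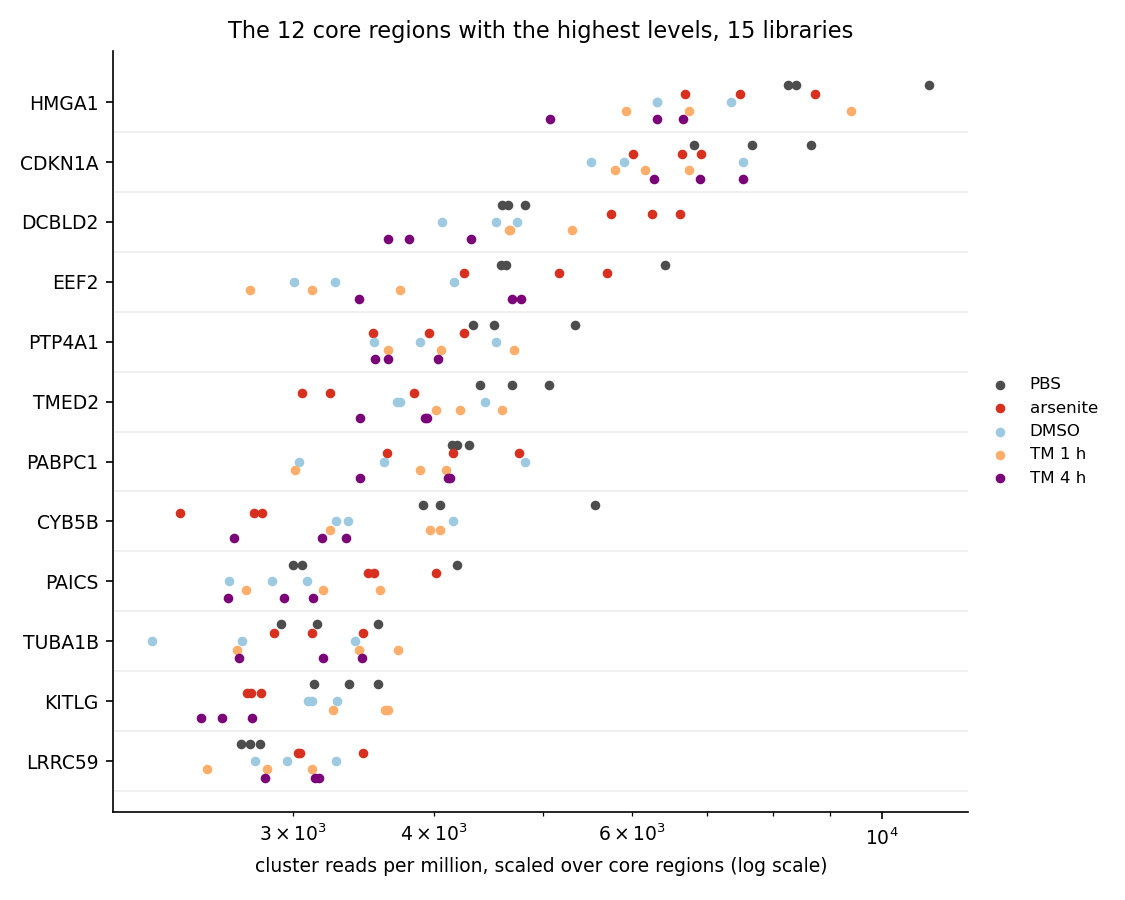
Levels in CPM (log scale, scaled over core regions) of the 12 core regions with the highest geometric means, 1 point per library, coloured by group. Values of a region lie within a factor of 2.34 over the 15 libraries in all 12, and HMGA1 stands between 5075 and 11016.

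A sum grows with width, and per 100 nt the order was another. The highest density was 1670 CPM per 100 nt in another PABPC1 region, followed by TUBA1B with 1414 and the PABPC1 region named above with 1411. The next regions lay in the pseudogene PABPC1P4, with 1207 and 1089, and 60.0% and 45.6% of their 30-mers occurred in other regions, so their reads cannot be assigned with certainty. EEF2 had 601 and came in place 15, HMGA1 had 520 and came in place 23, and KITLG had 153 and came in place 189. The median core region had 52.7 CPM per 100 nt.

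The spread of a core region over the 15 libraries is limited in part by the rule, which drops any region missing from a library. The median coefficient of variation (CV) was 0.268, and the highest of the 15 values was less than 2 times the lowest in 332 regions, with a median ratio of 2.81. The smallest CVs belonged to YWHAE, a 14-3-3 protein (0.0656, from 837 to 1041 CPM), the Mediator subunit MED13L (0.0660), CDK2AP1 (0.0681), the p53 ubiquitin ligase MDM2 (0.0693) and the GTPase RAB8A (0.0711). MDM2 ranged from 2015 to 2650 CPM over 5 conditions. The CV exceeded 1 in 10 regions, among them EGR1 with 2 regions, HSP90AA1 with 2 regions, BUB3, NFE2L2, HSPD1, IER2 and the pseudogene HSP90AA2P. The highest of them was 1.62, in the upstream EGR1 region.

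Core regions lay in protein-coding genes as often as other regions did. A coding gene covered 1322 of them (83.9%), against 83.7% of all other regions. They came from 956 of the 8527 coding genes with any region (11.2%). Measured from the middle of the region, the annotated 3′ end of the gene was a median of 1592.5 nt away along the genome, against 3053 nt for the other regions and 2209.5 nt for regions in 10 to 14 libraries. Within 3000 nt of that end lay 70.5% of core regions in coding genes with a 3′ end in the gene table, 59.3% of those in 10 to 14 libraries and 49.5% of all others. The median span of the host gene was 29755.5 nt, 40200 nt and 46346 nt in the same order. As a share of that span, the median position was 94.2%, 93.6% and 91.4% of the way along the gene. The part of gene length in the distances was not tested. Exons and UTRs were not annotated here, so a 3′ UTR cannot be told from an intron close to the gene's end.

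Most host genes had a single core region, and a few had many. One core region was found in 705 genes, 2 in 179, 3 in 48 and 4 in 14. LOC102724250 had 14, but this locus on chromosome 1 is a copy of mitochondrial DNA, and all 14 held 30-mers that also occur in clusters of the mitochondrial chromosome. PABPC1 had 13, the cadherin FAT1 9, the amino acid transporter SLC38A2 8, and DCBLD2, NFAT5, PABPC3, TUBA1B and YWHAZ 6 each. At least 1 30-mer was shared with another region in 789 core regions (50.1%), and 50% or more of the 30-mers in 301 (19.1%), against 12.6% of all other regions. The pseudogene kind took 146 core regions, 70 had no annotated gene, and 33 held 30-mers of mitochondrial clusters.

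Genes of the lists fixed for this work were counted with the 11.2% of all coding genes beside them. Of the known IGF2BP targets, 8 of the 9 genes with any region had a core region, among them ACTB, CCND1, CD44, CDK6, HMGA1, HMGA2 and PABPC1. The corresponding counts were 11 of 13 for translation factors and other TOP mRNAs, 12 of 20 for RNA-binding proteins, 6 of 10 for the cytoskeleton, 8 of 17 for the oxidative, heat and immediate early response, 5 of 18 for the unfolded protein response, 19 of 78 for ribosomal proteins and 3 of 13 for proliferation and cell cycle. The lists hold abundant mRNAs, and abundance was not measured, so these counts name members only. ACTB, CCND1, CDK6 and PABPC1 are each in more than 1 list. The 13 core regions of PABPC1 are among the 26 of known targets and the 28 of translation factors, and weigh on the counts and medians of both. Among ribosomal protein genes RPL15 had the highest geometric mean (635 CPM, from 453 to 935), and among RNA-binding proteins PTBP1 (799, from 561 to 1074).

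Core regions in coding genes had a median conversion share of 7.69%, pseudogenes 7.90% and tRNA genes 9.80%. Pooled over libraries, the core had 7.71% and all other regions 8.33%. The highest shares were 19.6% at the site with no gene on chromosome 6, 19.6% in TRX-CAT1-5 (95% Wilson interval 18.9% to 20.3%) and 19.2% in TRX-CAT1-1 (18.7% to 19.7%). The pseudogene ACTBP2 had 19.1% and a region of TXNRD1 19.1%, with 94.1% and 90.5% of their 30-mers found elsewhere. The lowest shares were 1.55% in LOC102724250 (1.35% to 1.79%), 1.96% and 2.54% at 2 sites with no gene on chromosomes 16 and 11, 2.59% in the Y RNA gene RNY1 (2.44% to 2.76%) and 2.76% in LOC107984619. The site on chromosome 16 shared 88.9% of its 30-mers with RNY1. Intervals cover counting error only.

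IgG clusters overlapped 97 core regions (6.15%), against 0.135% of the other regions. Read depth was not separated from this difference. Of the 11 core regions in tRNA genes, 10 had an IgG cluster, against 57 of 1305 in coding genes that were not copies of mitochondrial clusters. The core regions with most IgG reads were TRX-CAT1-1 (252 reads from all 5 IgG lists), TRK-TTT3-2 (208), the chromosome 6 site with no gene (196), LOC102723945 (138) and TRX-CAT1-5 (135). TRX-CAT1-1, TRX-CAT1-5 and the chromosome 6 site are thus among both the highest conversion shares and the most IgG reads.

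The arsenite and PBS libraries ask how the core changes under oxidative stress. Of 1562 core regions that could be tested, 95 rose and 78 fell (edgeR quasi-likelihood test, Benjamini-Hochberg adjusted over all 4292 regions tested, threshold 0.05). That is 11.1% of the core, against 11.3% over all regions tested, so the core was called no more often than the rest. By direction, 9.48% of all tested regions rose and 1.86% fell, and 78 of the 80 that fell were core. Outside the core a region lacks clusters in at least 1 library. Of the 1489 regions missing from exactly 1 library, 1206 lacked PBS replicate 2. How many of the tested regions lacked a PBS cluster was not counted. Whether this bears on the falls was not tested, and their concentration in the core is not read as a property of the core. The split between rises and falls also rested on the scaling. The median log2 fold change was 0.30 over all tested regions and -0.15 over the core. With library totals alone 29 core regions rose and 260 fell, with DESeq2 size factors 186 rose among 329 called, with TMM over core regions 140 and 66, and with gene count totals 66 and 137. The medians over all tested regions were then -0.17, 0.45, 0.43 and 0.19. Under all 5 scalings 90 of the 173 calls held, 28 higher and 62 lower. The count also changed with a library left out. It was 121 without PBS replicate 1, 330 without PBS replicate 2 and 50 without PBS replicate 3. Without arsenite replicate 1 it was 27, without arsenite replicate 2 15 and without arsenite replicate 3 36. In 570 core regions (36.5%) the libraries of the groups did not overlap, against 39.7% of all regions tested. The 14 core regions not tested were low, with geometric means of 32.7 to 72.8 CPM.

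The largest rise was in EGR1, an immediate early transcription factor. Its upstream region (chr5:138466743-138468103) had 14547, 13692 and 12320 CPM in the arsenite libraries and 500, 537 and 705 in the PBS libraries. All arsenite values were above all PBS values, and the log2 fold change was 4.52 with an SE of 0.16 (edgeR, adjusted p = 3.56e-05). The downstream region of EGR1 had 7297, 6592 and 6619 against 340, 358 and 656, a log2 fold change of 3.87 with an SE of 0.24 (edgeR, adjusted p = 0.000504). Both were called under each of the 5 scalings and with each library left out.

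One HSP90AA1 region, in the gene of an inducible chaperone, had 702, 673 and 605 CPM after arsenite and 88.2, 96.5 and 52.9 in PBS, with a log2 fold change of 3.12 with an SE of 0.24 (edgeR, adjusted p = 0.00106). Of its 30-mers 53.7% occurred elsewhere, 29.5% in HSP90AA2P, so reads of the gene and its copy cannot be separated fully. IER2, another immediate early gene, had 2787, 2732 and 2161 against 386, 551 and 467, with a log2 fold change of 2.49 with an SE of 0.17 (edgeR, adjusted p = 0.000551). BUB3, a spindle checkpoint protein, had 425, 402 and 347 against 46.2, 82.7 and 66.1, with a log2 fold change of 2.66 (edgeR adjusted p = 0.00331). Its call was lost when 1 of the 6 libraries was left out (arsenite replicate 2, edgeR adjusted p = 0.0591), while IER2 and this HSP90AA1 region kept theirs in all 6.

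The regions that fell farthest lay in genes of varied roles. LSM3, an RNA-processing Sm-like protein, had 35.9, 19.1 and 30.8 CPM after arsenite and 197, 234 and 233 in PBS. The groups did not overlap, and the log2 fold change was -2.94 with an SE of 0.41 (edgeR, adjusted p = 0.00926). HNRNPA0, an RNA-binding protein, had 30.7, 70.1 and 99.2 against 378, 221 and 361, with a log2 fold change of -2.21 with an SE of 0.42 (edgeR, adjusted p = 0.0157). HSBP1, a heat shock factor binding protein, had 66.6, 92.5 and 94.0 against 349, 345 and 454, with a log2 fold change of -2.16 with an SE of 0.26 (edgeR, adjusted p = 0.00514). ATP5MJ, a subunit of the mitochondrial ATP synthase, RAB25, a GTPase of epithelial recycling, and MRFAP1 had log2 fold changes of -2.09, -1.88 and -1.84. All 6 were called under each of the 5 scalings. With each of the 6 libraries left out in turn, HSBP1 was called in 5 cases, LSM3 in 3, MRFAP1 in 2, and HNRNPA0, ATP5MJ and RAB25 in 1. The log2 fold changes of all 6 regions stayed negative in every such case, from -2.38 to -1.43 in ATP5MJ. Without arsenite replicate 2 the edgeR adjusted p was highest, at 0.0721 for HSBP1, 0.0901 for LSM3, 0.124 for HNRNPA0, RAB25 and MRFAP1, and 0.248 for ATP5MJ.

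**Figure D4:**
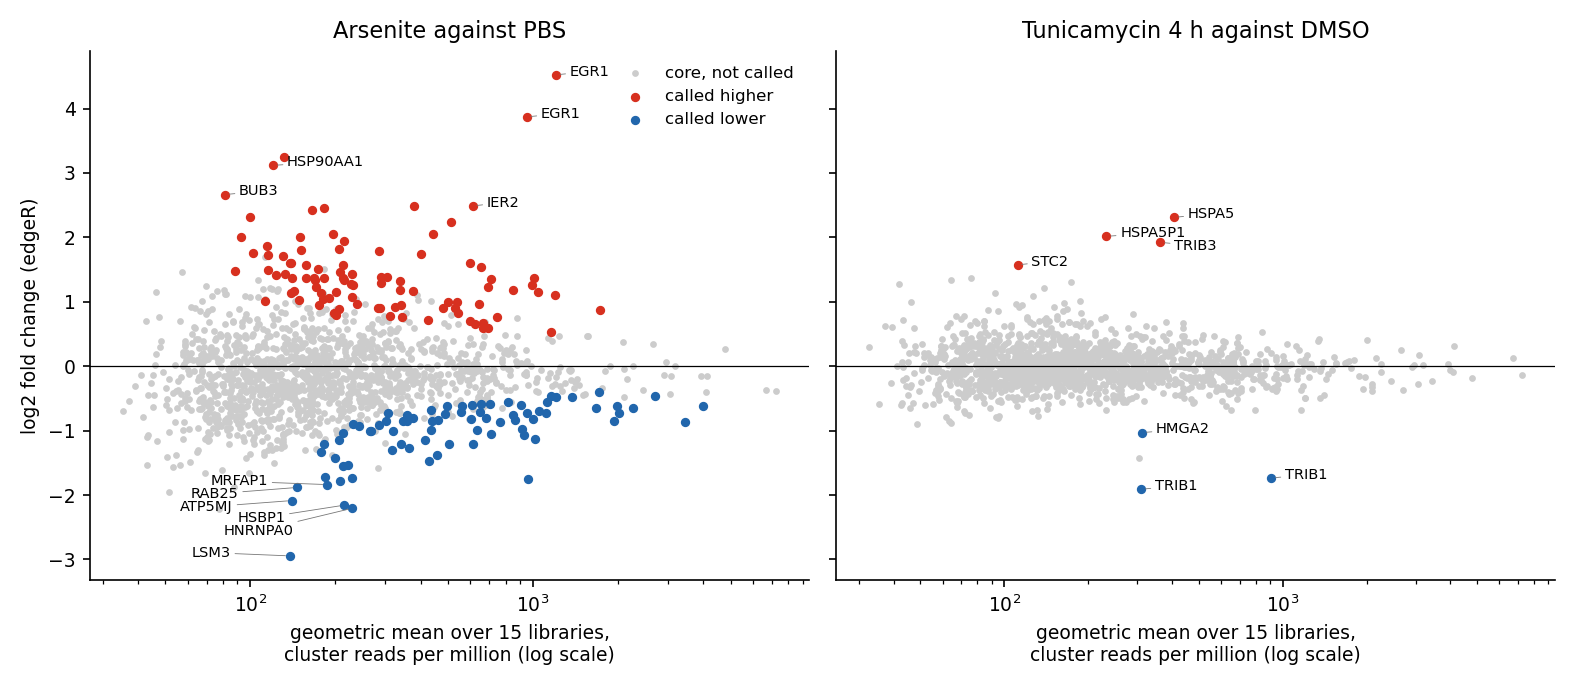
Log2 fold change from edgeR against the geometric mean of CPM over 15 libraries (log scale), 1 point per core region tested, for arsenite against PBS (left) and TM 4 h against DMSO (right); red and blue points passed an adjusted p of 0.05. Arsenite gave 95 higher and 78 lower regions with EGR1 at the top, and TM 4 h gave 4 higher and 3 lower.

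With each library left out in turn, 14 of the 173 calls held throughout, 13 of them higher. They included ADNP, EGR1 with both regions, FOSL1, HSP90AA1, HSP90AA2P, IER2, KMT2E, PCBP1, PDP1, SEC23IP and SP3, and the lower region lay in the GTPase gene RHOA. The regions that rose lay a median of 3537.5 nt from the 3′ end of their gene, those that fell 1053 nt and those not called 1545 nt. An IgG cluster was present in 2 of the 95 that rose, 23 of the 78 that fell and 72 of the 1389 not called. The part of IgG background in the falls was not tested. Regions that fell had a median of 493 CPM and those that rose 228.

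The fixed lists moved as follows after arsenite. In the oxidative, heat and immediate early list 7 of 14 core regions rose and 0 fell, with a median log2 fold change of 0.70: both regions of EGR1, all 3 of HSP90AA1, FTL, a ferritin chain, and HSPA8, a constitutive chaperone. The median over all tested regions was 0.30. Of these 7 calls 4 held under all 5 scalings, namely both EGR1 regions and 2 of HSP90AA1, while FTL was called under 4 and HSPA8 under 3, and each of the latter in 1 of the 6 cases with a library left out. In the unfolded protein response list 3 of 6 regions fell, in the endoplasmic reticulum chaperones CALR (log2 fold change -0.85) and CANX with 2 regions, and 0 rose. The median of that list was -0.60. Among ribosomal proteins 3 of 20 tested regions fell, in RPL23, RPL23A and RPL39, and 0 rose. RPL23A went from 491 ± 91.3 CPM in PBS to 207 ± 25.3 after arsenite (SD, n = 3), with an edgeR adjusted p of 0.0129. Known targets gave 5 higher regions, in ACTB, CD44 and HMGA2 with 3 regions, and 1 lower, in CCND1, of 26. RNA-binding proteins gave 3 higher, in CAPRIN1, HNRNPU and TRA2B, and 1 lower, in NCL, of 15. Library scaling bears on these calls: CALR, RPL23A, RPL39, CD44 and 1 CANX region were called under 5 of 5 scalings, ACTB, TRA2B, HNRNPU, NCL, CCND1, RPL23 and the other CANX region under 4, and CAPRIN1 under 3. None of them was called with every library left out in turn. Cytoskeletal genes gave 2 in each direction of 18, namely the actins ACTB and ACTG1 higher and the tubulins TUBA1B and TUBA1C lower, of which TUBA1B was called under 5 of 5 scalings. Proliferation genes gave 1 lower of 6, in CCND1, and of the 27 translation factor regions tested 0 were called.

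In a few genes several core regions were called after arsenite. Of 251 genes with at least 2 core regions, 54 had a call and 16 had at least 2. Per region, 173 of 1562 tested core regions were called, and 11.3% of all regions tested. Genes with several regions hold calls at that rate alone, and an excess over it was not tested. In 9 genes every core region was called in the same direction, and in 2 genes regions were called in both directions. All 8 core regions of SLC38A2, a transporter of small neutral amino acids, rose by 0.77 to 1.60 on the log2 scale, with the highest edgeR adjusted p at 0.0284. Its deepest region had 1368, 1317 and 1356 CPM after arsenite and 550, 358 and 740 in PBS. Each SLC38A2 region was called under 3 to 5 of the 5 scalings and in 1 to 3 of the 6 cases with a library left out. All 3 regions of HMGA2 rose by 0.53 to 0.78. They were called under 4, 3 and 3 of the 5 scalings and in 2, 1 and 1 of the 6 cases with a library left out, and under library totals the log2 fold change of 1 of them was -0.03. FAT1 rose in 3 of 9 regions, NFAT5, the osmotic stress factor, in 3 of 6, and DCBLD2 in 2 of 6. PABPC1 had 0 calls in 13 regions and LOC102724250 0 in 14.

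In PHLDA1 and HSPD1 regions of 1 gene were called in both directions. The first region of PHLDA1, a gene induced by growth factors and stress, had 671, 714 and 766 CPM after arsenite and 1373, 978 and 1246 in PBS, a log2 fold change of -0.76 with an SE of 0.15 (edgeR, adjusted p = 0.0157). The middle region went the same way, with a log2 fold change of -0.73. The last, farthest from the 3′ end of the gene, had 897, 988 and 831 against 487, 317 and 366, a log2 fold change of 1.17 with an SE of 0.18 (edgeR, adjusted p = 0.0108). In HSPD1, a mitochondrial chaperonin, the region next to the 3′ end fell by 0.46 and another region had a log2 fold change of 2.00, but 42.0% and 42.7% of their 30-mers occur in HSPD1P1. The falls in PHLDA1 and the rise in HSPD1 were called under 5 of 5 scalings, the rise in PHLDA1 and the fall in HSPD1 under 4, and each of these 5 regions in 1 to 3 of the 6 cases with a library left out. The difference between regions of a gene was not tested.

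TM for 4 h, set against DMSO, asks how the core changes under endoplasmic reticulum stress. Of 1576 core regions 4 rose and 3 fell (edgeR, adjusted over 11153 regions). This is 0.444% of the core, against 0.0986% of all regions tested (0.0717% higher and 0.0269% lower), and 7 of all 11 calls were core. All other core regions were not called, and 99.0% of the core stayed within a 2-fold fitted change. Membership needs a cluster in every library, so regions lost or gained outright are not in this share. The 3 DMSO libraries did not overlap with the 3 TM libraries in 351 core regions (22.3%), against 14.5% of all regions tested. At an unadjusted p under 0.05 there were 178 core regions (11.3%), against 2.32% over all regions tested. Read depth was not separated from these larger shares in the core. DESeq2 called 51 core regions, and the count ranged from 1 without TM 1 h replicate 3, which shares the fit, to 11 without TM 1 h replicate 1. It was 4 without DMSO replicate 2 or without TM 4 h replicate 2 or 3, and 3 without DMSO replicate 3.

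HSPA5, the endoplasmic reticulum chaperone BiP, rose most. It had 1132, 1603 and 875 CPM after TM and 253, 212 and 261 in DMSO, with no overlap and a log2 fold change of 2.31 with an SE of 0.20 (edgeR, adjusted p = 3.82e-05). It was the single call that held under every scaling and with each of the 9 libraries left out. HSPA5P1, a pseudogene, had 514, 718 and 338 against 131, 108 and 145, with a log2 fold change of 2.02 with an SE of 0.25 (edgeR, adjusted p = 0.00173). Of the 30-mers of this 47-nt region 94.4% occur in the HSPA5 region, so it cannot be counted as separate. TRIB3, a pseudokinase induced by the integrated stress response, had 694, 1351 and 713 against 253, 268 and 212, with a log2 fold change of 1.92 with an SE of 0.24 (edgeR, adjusted p = 0.00173). STC2, a stanniocalcin hormone gene, had 242, 393 and 268 against 78.7, 114 and 104, with a log2 fold change of 1.57 with an SE of 0.27 (edgeR, adjusted p = 0.0350). It was called in 2 of the 9 cases with a library left out and lost its call with a replicate block (edgeR adjusted p = 0.103). Within the library set of replicates 1 and 2 HSPA5 alone was called among these regions (edgeR adjusted p = 0.0348), while STC2 and TRIB3 had log2 fold changes of 1.67 and 1.95 there.

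The regions that fell lay in TRIB1 and HMGA2. The main TRIB1 region, in the gene of another pseudokinase, had 470, 409 and 336 CPM after TM and 1158, 997 and 1811 in DMSO, with a log2 fold change of -1.74 with an SE of 0.21 (edgeR, adjusted p = 0.00159). A second TRIB1 region had a log2 fold change of -1.91 (edgeR adjusted p = 0.0288). HMGA2, a chromatin architectural protein and known IGF2BP target, had 152, 163 and 162 against 271, 344 and 352 in 1 of its regions, with a log2 fold change of -1.03 with an SE of 0.16 (edgeR, adjusted p = 0.0190). This call was lost with library totals (edgeR adjusted p = 0.163) and gene count totals (edgeR adjusted p = 0.0550) and held in 3 of the 9 cases with a library left out. The same HMGA2 region rose after arsenite, where it had 441, 504 and 470 against 260, 248 and 308 in PBS. In the unfolded protein response list 2 of 6 regions rose, in HSPA5 and TRIB3, and 0 fell. Known targets gave 1 lower of 26, and the other 6 lists gave 0 calls, with medians of 0.44 for the 21 ribosomal protein regions and 0.32 for the 28 translation factor regions against 0.02 over all regions tested.

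**Figure D5:**
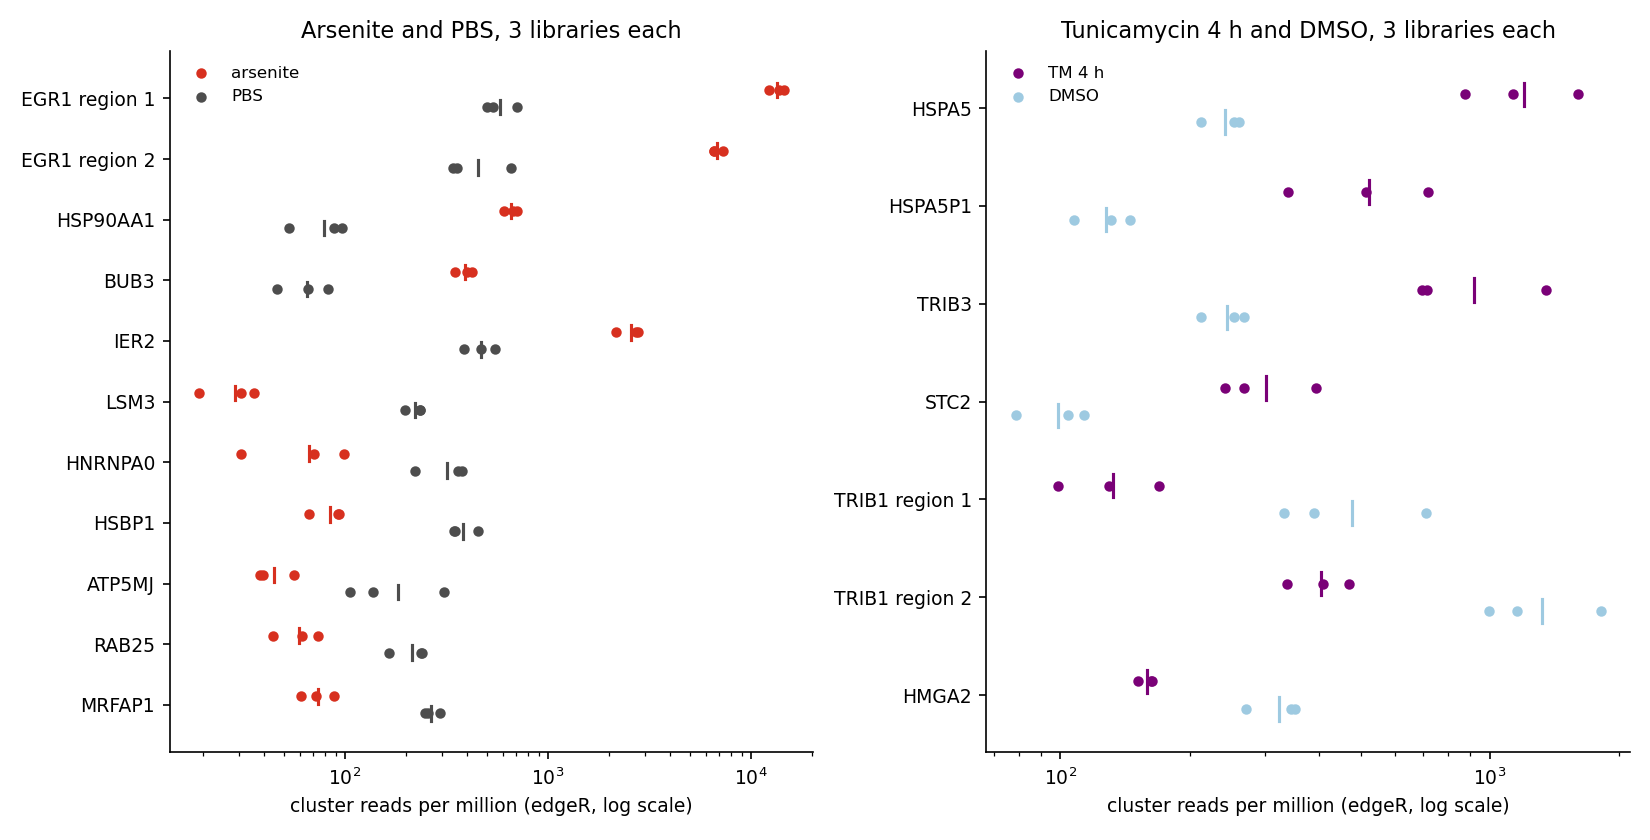
Levels in CPM (edgeR, log scale) in each library for core regions with large called changes, arsenite and PBS (left) and TM 4 h and DMSO (right), with a bar at the mean of each group of 3. The groups do not overlap in any region shown; EGR1 region 1 stands at 12320 to 14547 against 500 to 705, and HSPA5 at 875 to 1603 against 212 to 261.

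TM for 1 h gave 0 calls in the core and 0 over all 11153 regions tested by edgeR, a background of 0%. This comparison uses the same DMSO libraries as the 4 h one. At an unadjusted p under 0.05 there were 112 core regions (7.11%) and 306 in all, 2.74% of those tested. DESeq2 called 2 core regions. Groups did not overlap in 246 core regions (15.6%), against 11.2% over all. Here too, read depth was not separated from the larger shares in the core. The fitted change stayed within 2-fold in 99.4% of the core, a share that again leaves out regions lost or gained outright. The median log2 fold change was -0.02 in the core and -0.22 over all regions tested. For the upstream EGR1 region the log2 fold change was -1.42 (edgeR adjusted p = 0.684).

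The effects of arsenite and of TM for 4 h were set against each other in 1 fit of the 15 libraries, as the arsenite minus PBS change less the TM 4 h minus DMSO change. The effects differed in 77 of 1576 core regions (4.89%), against 1.76% of all 7456 regions tested (edgeR, adjusted p under 0.05). The difference was positive in 45 and negative in 32. It was 5.06 on the log2 scale in the upstream EGR1 region and -1.90 in HSPA5. PBS and arsenite libraries belong to another library set than the DMSO and TM libraries, and set and stressor cannot be told apart in this difference except through each set's own controls. Read depth was not separated from the larger share of such regions in the core.

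The conversion share in core regions was compared as 1 pooled value per library. It was 8.27% ± 0.107 after arsenite and 7.88% ± 0.251 in PBS (SD, n = 3), a difference of 0.389 percentage points. All arsenite values lay above all PBS values, which gives the smallest p that 3 against 3 allow, 0.1 (exact permutation test, two-sided, adjusted p = 0.3 over 3 comparisons). Averaged over regions instead, the difference was -0.0236. After TM for 4 h the share was 7.95% ± 0.570 against 7.60% ± 0.196 in DMSO (exact permutation p = 0.4, adjusted p = 0.6), and after 1 h 7.57% ± 0.324 (exact permutation p = 0.8, adjusted p = 0.8). With 3 libraries a group no difference could have reached 0.05 in this test.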

How the data were processed

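The authors deposited, for each library, a list of PAR-CLIP clusters with read counts and conversion event counts (per the file headers), and a table of gene counts. The submitters' processing notes name bcl2fastq 2.20.0.422, UMI-tools 1.1.1, Trimmomatic 0.30, Bowtie 0.12.7, featureCounts 2.0.1 and the builds GRCh38.p13 and hg38. The cluster caller is not given in the sources used here.

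Read counts of clusters were summed per merged region and library. Regions past filterByExpr were tested with edgeR 4.0.16 (R 4.3.3, TMM, quasi-likelihood), arsenite and PBS in a fit of their 6 libraries and DMSO, TM 1 h and TM 4 h in a fit of 9, with Benjamini-Hochberg adjustment over all regions tested. The conversion share was tested by exact permutation (scipy 1.17.1). Alternatives were DESeq2 1.42.0, other scalings and filters, a 10 nt overlap, a replicate block and each library left out. The fits were tested on simulated data. Sequences come from the deposited cluster lists. Host genes come from the RefSeq table (GRCh38.p14), which lists no strand for some genes, so a host may lie on the other strand. A comparison with the host gene's own count was not run, because the gene identifiers could not be named.

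Members and gene lists were chosen with earlier results of these data known. Named regions were the 12 highest, up to 6 per direction and comparison with the largest called change and no overlap, the 5 smallest CVs, the 5 genes with most core regions, 5 at each end of the conversion share, up to 4 per gene list, 3 on each side of the rule and 5 by IgG reads. PHLDA1, HSPD1 and NFAT5, and other genes given only in a list of calls, were named after their values were seen. Some items that these rules select are not reported here. Same-numbered libraries of DMSO and TM 1 h deviated together (r of 0.163, 0.104 and 0.269), which pairs them by the rule used, and the block left the count of calls there at 0. For DMSO and TM 4 h r was 0.140, 0.0936 and 0.140, against -0.136 to 0.0575 between libraries of different numbers. By their names these libraries also share library sets. The main fit holds no replicate block, and with the block 8 core regions were called after TM for 4 h, against 7 without. For PBS and arsenite r was -0.0980, -0.0471 and 0.0406, so these share only a number.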

Additional observations from a re-analysis of the deposited data

Results flagged for a closer look

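The arsenite and TM 4 h effects differed by the test of the difference itself in 77 core regions. Among regions named in the report, the arsenite effect less the TM 4 h effect was 5.06 and 4.26 on the log2 scale in the upstream and downstream EGR1 regions, 2.87 in IER2, 2.36 in HSP90AA1 and 2.36 in BUB3. It was -2.41 in LSM3, -2.09 in MRFAP1, -2.01 in HSBP1, -1.87 in HNRNPA0 and -1.65 in RAB25. Of the regions called after TM, it was -1.90 in HSPA5, -1.77 in HSPA5P1, 1.81 in the main TRIB1 region and 1.83 in HMGA2. This HMGA2 region was called higher after arsenite and lower after TM, each under 3 of 5 scalings and in 1 of 6 and 3 of 9 cases with a library left out.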

How the results depend on the processing

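The number of core regions was 664 with clusters of at least 10 reads, 3433 over the 9 TM and DMSO libraries, 3065 over any 14 libraries and 1577 to 2782 with each library left out. Core regions called after arsenite numbered 289 with library totals, 329 with DESeq2, 343 with only core regions fitted (chosen after seeing the data), 16 with the replicate block and 15 to 330 with each library left out. After TM for 4 h they numbered 51 with DESeq2, 56 with no filter, 42 with only core regions fitted, 1 with replicates 1 and 2 alone, 8 with the replicate block and 1 to 11 with each library left out. After TM for 1 h they numbered 2 with library totals, 2 with DESeq2, 19 with no filter and 0 with the replicate block or with any library left out. The causes were not tested. Of the 19 regions with the largest called changes 0 reversed under these alternatives, and 11 kept their call under the block. The conversion difference turned to -0.0236 for arsenite when averaged over regions. For TM 1 h it turned to 0.102 when averaged over regions and 0.0464 with replicates 1 and 2 alone, and ranged from -0.218 to 0.0776 with each library left out, with 0.0492 without TM 1 h replicate 2 and 0.0749 without replicate 3. PBS replicate 2 had the fewest reads, and the part of depth in the core's size was not tested. Reads of copied sequence cannot be assigned with certainty.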
